A study of Mus musculus with 19 samples.

Results

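The comparison described here asks whether a period of hypergravity of about 1 week changed gene expression differently in 2 kinds of cultures from mouse bone marrow. Its members are the 11 libraries of the 1 week set, chosen by titles without the 3W mark, out of 19 libraries in the series, and the contrast is the hypergravity response of macrophages minus that of stromal cultures, tested across all genes. The groups were hypergravity macrophages (G-BMDM, 2 libraries), control macrophages (Normal-BMDM, 3 libraries), hypergravity stromal cultures (G-BMSC, 3 libraries) and control stromal cultures (Normal-BMSC, 3 libraries). All came from C57BL/6 mice. G animals were exposed to 15 G in sessions of 15 min for about 1 week, and Normal animals were listed at 0 G with no duration in their labels. BMDM are bone marrow-derived macrophages, which M-CSF, a growth factor, brings out of marrow progenitors in culture. BMSC are bone marrow mesenchymal stem cells, the adherent stromal cells of marrow, but the growth protocol in the labels describes M-CSF culture for these libraries too. Macrophage transcripts were also abundant in them, as described below, so the name stromal cultures follows the labels only. Likewise, cell type below means the label, BMDM or BMSC, and macrophage groups means the BMDM groups. No label says whether the libraries of a group stem from different mice or dishes. The p-values therefore reflect only how these libraries vary, and that variation may be technical. With 2 G-BMDM libraries, the spread of that group rests on a single difference, and the fit pools it with the other groups.

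Macrophages and stromal cells share the marrow and signal to each other: stromal cells supply M-CSF and the osteoclast factor RANKL, and macrophages, the relatives and precursors of osteoclasts, supply cytokines. Macrophages hold a fast inducible programme in which the transcription factor NF-kB switches on cytokine, chemokine and prostaglandin genes, and interferon then switches on a second wave through interferon-stimulated response elements. A separate stress programme, the unfolded protein response, acts through the sensors encoded by Ern1, Eif2ak3 and Atf6. Its factor ATF4, which also serves amino acid shortage, binds C/EBP-ATF response elements in genes for amino acid transport and synthesis.

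Levels below are counts per 1e6 counts after TMM scaling (CPM, the same scaling as the test), fold changes are log2 values of G over Normal, and the response difference is the BMDM log2 response minus the BMSC log2 response, so a positive value means a higher response in BMDM. Calls are genes whose p in edgeR's quasi-likelihood test, adjusted by Benjamini-Hochberg over 15776 genes, fell below 0.05. The SEs and intervals given were worked back from the log2 value and the statistic of that test. Library totals ran from 17.6 to 33.02 M counts (1e6). The floor for a gene at 0, 3 counts, was thus worth 0.0909 to 0.17 CPM before TMM scaling. Where medians are given with genes of few counts set to the floor, it was 3 counts over a whole group. That group floor was 0.0335 to 0.0718 CPM after TMM scaling. Values of every library are shown for 15 of the genes described below in the plot of levels.

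The upstream sequences of 5 genes called higher in the response difference show the elements that these programmes are known to use. Each runs 5′ to 3′ on the gene's strand over the 250 bases before the RefSeq start (assembly GRCm38.p6, the mm10 assembly), and capitals mark the letters that match the motif named for that gene. The NF-kB core searched was GGANTTTCC, the core of the interferon-stimulated response element TTCNNTTTC and the C/EBP-ATF response element TGATGNAA, on both strands. Il6 (chr5:30012864-30013113, + strand), Cxcl1 (chr5:90890995-90891244, + strand) and Cxcl2 (chr5:90903649-90903898, + strand) are shown for the first, Ifit1 (chr19:34640639-34640888, + strand) for the second and Slc7a11 (chr3:50443614-50443863, − strand) for the third.
Il6: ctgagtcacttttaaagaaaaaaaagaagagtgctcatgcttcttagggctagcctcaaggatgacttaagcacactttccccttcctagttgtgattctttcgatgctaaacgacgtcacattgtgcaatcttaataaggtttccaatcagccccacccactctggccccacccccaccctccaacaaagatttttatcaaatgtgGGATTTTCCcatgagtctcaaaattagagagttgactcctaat
Cxcl1: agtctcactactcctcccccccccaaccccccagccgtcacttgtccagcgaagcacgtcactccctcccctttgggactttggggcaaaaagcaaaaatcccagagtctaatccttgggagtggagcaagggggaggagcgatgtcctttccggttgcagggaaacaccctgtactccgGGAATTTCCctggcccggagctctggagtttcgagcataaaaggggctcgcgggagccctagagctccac
Cxcl2: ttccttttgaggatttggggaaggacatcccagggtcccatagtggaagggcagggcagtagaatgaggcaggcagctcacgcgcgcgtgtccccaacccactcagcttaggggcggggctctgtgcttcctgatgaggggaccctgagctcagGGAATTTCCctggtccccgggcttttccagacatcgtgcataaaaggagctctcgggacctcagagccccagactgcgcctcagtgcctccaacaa
Ifit1: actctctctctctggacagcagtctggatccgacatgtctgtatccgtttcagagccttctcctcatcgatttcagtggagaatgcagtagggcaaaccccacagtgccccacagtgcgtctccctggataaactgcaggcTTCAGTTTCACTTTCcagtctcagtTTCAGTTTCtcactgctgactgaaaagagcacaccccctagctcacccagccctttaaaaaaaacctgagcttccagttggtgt
Slc7a11: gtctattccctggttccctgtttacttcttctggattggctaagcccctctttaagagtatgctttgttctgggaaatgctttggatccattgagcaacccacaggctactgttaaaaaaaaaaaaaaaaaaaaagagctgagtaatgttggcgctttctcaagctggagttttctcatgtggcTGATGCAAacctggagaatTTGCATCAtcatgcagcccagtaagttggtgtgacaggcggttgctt
The NF-kB match starts 43 bases before the start in Il6, 70 in Cxcl1 and 96 in Cxcl2. Ifit1 has matches 109, 103 and 84 bases before its start, and Slc7a11 has matches 66 and 47 bases before its start on opposite strands. In none of these 5 windows did matches of different motifs overlap. The NF-kB motif was found in 5 of the 15 inflammatory genes with an upstream sequence (33.3%), the interferon element in 13 of 21 interferon-stimulated genes (61.9%) and the C/EBP-ATF element in 8 of 28 ATF4 and CHOP targets (28.6%). Among all 27025 genes with such a sequence the shares were 1.25% for NF-kB, 8.18% for the interferon element and 3.91% for the C/EBP-ATF element. Among the 11032 tested genes with a sequence, from which calls can come, they were 1.5%, 7.8% and 2.57%. Of the 2516 genes with a sequence that were called higher, 1.99%, 9.46% and 2.82% held them, and of the 2439 called lower 1.31%, 7.09% and 2.62%. Matches of more than 1 of these motifs overlapped in 14 of all the windows. A match describes the letters in this window and is not evidence of binding.

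The response differed between the cultures labelled BMDM and BMSC for a large part of the transcriptome. Of 15776 genes, 6770 were called in the response difference (42.9%), 3393 higher (21.5%) and 3377 lower (21.4%). Counts of calls in the gene lists below are to be read against these shares. The median response difference over all genes was -0.08 on the log2 scale. Scaling by library size alone moved that median to -0.36 and the split to 2319 higher and 4811 lower. The TMM factors of the G-BMDM libraries were 0.784 and 0.791, against 0.937 to 0.977 in Normal-BMDM and 1.02 to 1.19 in BMSC libraries. Small differences are therefore relative to the scaling. Among the calls, 525 higher and 540 lower genes differed by over 3 on the log2 scale. In bulk libraries, fewer cells of a type and less RNA per cell cannot be told apart.

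The difference came mainly from the BMDM response, as measured within each cell type in the same fit. In BMDM, 7902 genes were called (50.1%), 4053 higher and 3849 lower. In BMSC, edgeR called 0 genes (0%), with a smallest adjusted p of 0.109, while 1940 genes (12.3%) had an unadjusted p below 0.05, against 788.8 given by chance. That number rests on single libraries, at 782 without G-BMSC replicate 2 and 888 without Normal-BMSC replicate 1, and 2523 without Normal-BMSC replicate 3. DESeq2 called 6 genes in BMSC. The SD of the log2 response across genes was 1.77 in BMDM and 0.50 in BMSC. Of the 6770 genes, 6262 were also called in BMDM, all in the direction of the response difference, and for 5119 of these (81.7%) the 95% interval of the BMSC response lay within 1 log2 unit of 0. The other 508 genes, 240 higher and 268 lower, were called in the response difference without a call in either cell type. A further 1640 genes were called in BMDM and not in the response difference. Their median BMSC response along the BMDM direction was 0.16, and its sign was the BMDM sign in 81.0% of them, a share that the absence of a call favours by construction. Among all 7902 genes called in BMDM the BMSC sign was the same in 44.7%, and among all genes tested in 44.3%.

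**Figure D1:**
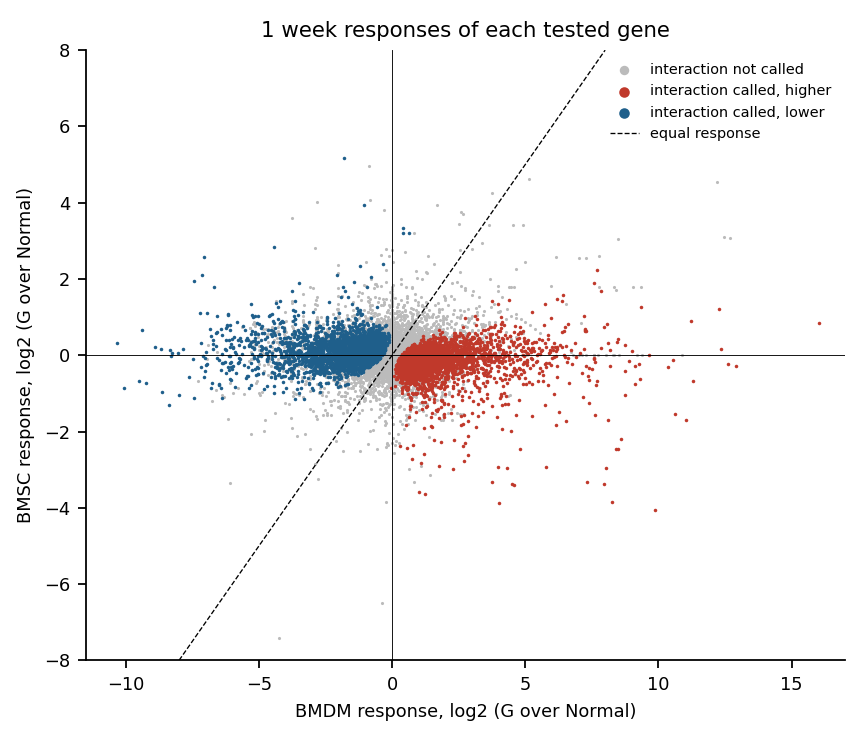
Each point is a gene, with its BMDM response on the x axis and its BMSC response on the y axis (log2, G over Normal), coloured by the call on the response difference; the dashed line marks equal responses. Called genes spread along the x axis, with an SD of 1.77 in BMDM and 0.50 in BMSC.

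The BMSC count of calls depended on the filter on low counts, and the cause was not tested. With no filter on low counts edgeR called 734 genes in BMSC, 238 higher and 496 lower, of which 727 were among the 15776 genes above. Of these 734 genes, 333 were called in BMDM in the opposite direction, all of them also called in the response difference, and 145 in the same direction, while with the filter the count of genes called in both cell types is 0. The median size of the 734 BMSC changes was 0.64 on the log2 scale. The genes called lower had a median exonic length of 10152 bases (452 with a length) and those called higher one of 2272 bases (226 with a length), against 4141 bases over all genes tested. Counted by separation of libraries, G and Normal libraries did not overlap in BMDM for 10458 genes (66.3%) and in BMSC for 2957 genes (18.7%), in both cell types with opposite directions for 1073 (6.8%) and with the same direction for 721 (4.57%).

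Inflammatory genes were nearly all called higher. Of 24 tested cytokine, chemokine and effector genes, 23 were called higher and 0 lower, with a median difference of 8.98 (7.75 with genes of few counts set to the floor), against -0.08 over all genes. Saa3, an acute phase apolipoprotein made by macrophages, had 22807 and 21773 CPM in G-BMDM libraries, against 4.69, 2.73 and 2.99 CPM in Normal-BMDM libraries. In stromal cultures it had 39.5, 43 and 18.6 CPM in G-BMSC libraries, against 40.8, 46.3 and 31.1 CPM in Normal-BMSC libraries. Thus the BMDM groups were far apart and the BMSC groups overlapped, and the response difference was 12.84 ± 0.52 on the log2 scale (SE, adjusted p = 7.96e-09, edgeR). Nos2, the inducible nitric oxide synthase, had 1514 and 1711 CPM in G-BMDM libraries, against 0.171, 0.227 and 0.568 CPM in Normal-BMDM libraries, and 2.39, 1.57 and 1.19 CPM in G-BMSC libraries, against 1.87, 2.03 and 0.753 CPM in Normal-BMSC libraries. Its response difference was 12.18 ± 0.56 on the log2 scale (SE, adjusted p = 2.47e-08, edgeR). Ptgs2, the inducible cyclooxygenase that starts prostaglandin synthesis, had 5471 and 5648 CPM in G-BMDM libraries, against 2.12, 3.69 and 7.02 CPM in Normal-BMDM libraries, and 4.46, 4.74 and 3.14 CPM in G-BMSC libraries, against 6.68, 5.71 and 2.97 CPM in Normal-BMSC libraries. Again only the macrophage groups separated. The other members of the 10 largest positive differences were Acod1 (which makes itaconate, 9.95), Il1b (9.87), the activating receptor gene Tarm1 (9.78), the neutrophil chemokine genes Cxcl2 (9.62) and Cxcl1 (9.41) and Clec4e, a receptor for mycobacterial glycolipid (9.49), and Il12b, a subunit of interleukin-12. Il12b had 414 and 393 CPM in G-BMDM libraries, against 0.0684, 0.0568 and 0.103 CPM in Normal-BMDM libraries, and 0.0318, 0.185 and 0.108 CPM in G-BMSC libraries, against 0.0968, 0 and 0.0376 CPM in Normal-BMSC libraries. Both Normal groups and G-BMSC were near the floor, with 5 counts in all in Normal-BMDM and 4 in Normal-BMSC, so the size of its difference (95% interval 7.78 to 14.40) and its place among the 10 are poorly set.

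**Figure D2:**
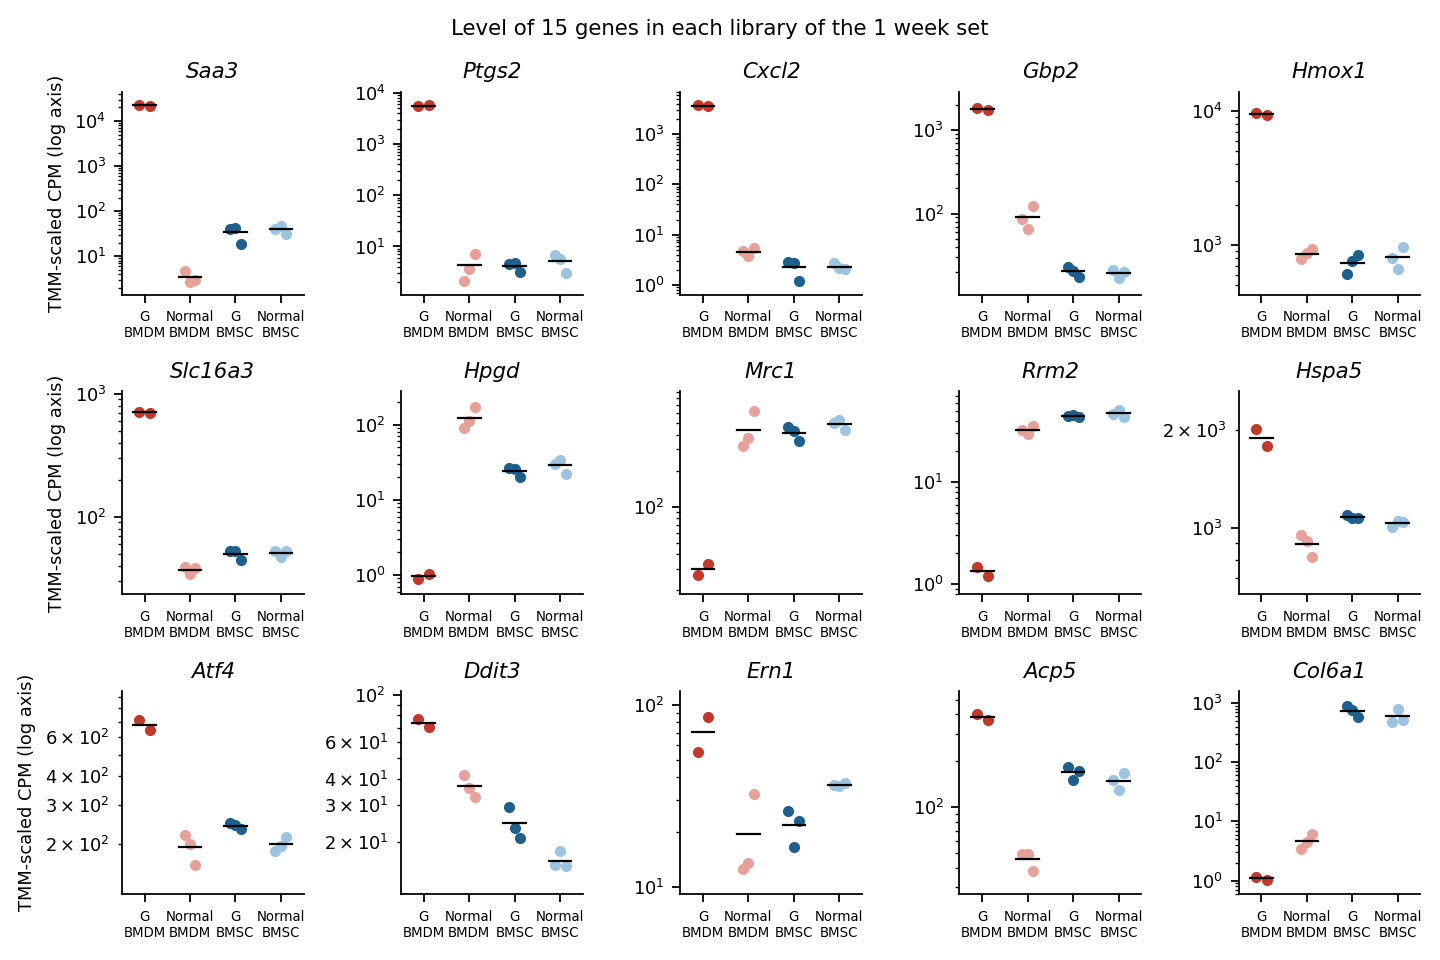
TMM-scaled CPM (log axis) of 15 genes in each library of the 1 week set, as points, with the group mean as a bar; groups run from G-BMDM to Normal-BMSC. G-BMDM libraries stand apart from Normal-BMDM libraries in all genes shown, whereas G-BMSC and Normal-BMSC libraries overlap in 11 of the 15.

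The chemokines whose NF-kB matches are printed above were high in G-BMDM libraries only, by library values. Cxcl2 had 3750 and 3598 CPM in G-BMDM libraries, against 4.72, 3.69 and 5.42 CPM in Normal-BMDM libraries, and 2.8, 2.71 and 1.19 CPM in G-BMSC libraries, against 2.68, 2.15 and 2.03 CPM in Normal-BMSC libraries. Cxcl1 had 654 and 608 CPM in G-BMDM libraries, against 0.718, 1.7 and 1.08 CPM in Normal-BMDM libraries, and 2.55, 3.29 and 3.3 CPM in G-BMSC libraries, against 2.94, 4.49 and 3.54 CPM in Normal-BMSC libraries. For both, the interval of the BMSC response held 0 (-0.55 to 0.58 for Cxcl2 and -0.75 to 0.21 for Cxcl1). Il6, a cytokine that acts on bone and immune cells, had 410 and 371 CPM in G-BMDM libraries, against 0, 0.0568 and 0.103 CPM in Normal-BMDM libraries, and 0.541, 0.215 and 0.162 CPM in G-BMSC libraries, against 0.0968, 0.811 and 0.264 CPM in Normal-BMSC libraries. The G-BMDM libraries were far above all others, and the BMSC groups overlapped. Counts of Il6 in Normal-BMDM were at or under the floor, so no fold is given. For Tarm1 the BMSC libraries separated too, in the other direction: it had 299 and 287 CPM in G-BMDM libraries, against 0.547, 0.738 and 0.826 CPM in Normal-BMDM libraries, and 0.669, 0.892 and 0.433 CPM in G-BMSC libraries, against 1.03, 1.34 and 2 CPM in Normal-BMSC libraries. Its BMSC response was -1.05 (95% interval -1.65 to -0.45), which was not called. The uncalled inflammatory gene was Cxcl5, with a response of 1.71 in BMDM, which was called, and 1.37 in BMSC, which was not.

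Genes that restrain this programme were called higher as well. All 18 tested feedback inhibitors and NF-kB subunits were called higher (median 2.85). Socs3, an inhibitor of cytokine receptor signalling, had 662 and 646 CPM in G-BMDM libraries, against 1.4, 1.93 and 2.27 CPM in Normal-BMDM libraries, and 29.9, 29.3 and 18.7 CPM in G-BMSC libraries, against 18, 23.1 and 16.8 CPM in Normal-BMSC libraries. Its response difference was 8.04 ± 0.32 on the log2 scale (SE, adjusted p = 7.3e-09, edgeR). The macrophage groups were far apart, and the BMSC groups overlapped. Nfkbia, the inhibitor of NF-kB, had 491 and 469 CPM in G-BMDM libraries, against 53.9, 49.3 and 56.9 CPM in Normal-BMDM libraries, with a difference of 3.05. Tnfaip3, a deubiquitinating inhibitor of NF-kB signalling, differed by 4.28 and Zc3h12a, an RNase that destroys cytokine messages, by 3.72.

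All 27 tested interferon-stimulated genes were called higher in the response difference (median 2.86), 25 of them called in BMDM, and their median BMSC response was -0.32 against 0.03 over all genes, with 0 called. Gbp2, a guanylate-binding protein that acts on pathogen vacuoles, had 1822 and 1729 CPM in G-BMDM libraries, against 86.6, 65.9 and 124 CPM in Normal-BMDM libraries, and 23.1, 20.7 and 17.3 CPM in G-BMSC libraries, against 21.2, 16.9 and 20.1 CPM in Normal-BMSC libraries. Gbp5 differed by 5.83 and Irf1, a transcription factor of the interferon response, by 2.52. Ifit1, an antiviral RNA-binding protein whose elements are printed above, differed by 4.07. Oas2 and Oas3, sensors of double-stranded RNA, were called in the response difference (1.40 and 1.90) without a call in BMDM (0.51 and 0.89), with BMSC responses of -0.89 and -1.01 at unadjusted p of 0.0195 and 0.0167. The call on Oas2 was lost without any one of 7 libraries (0.96 to 1.51). Under library size alone 25 of the 27 were called higher.

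Immediate early genes, which encode fast-acting transcription factors, were split. Of 19 tested, 11 were called higher and 3 lower (median 1.10). Fosl1 differed by 4.70, Fosl2 by 2.28 and Ier3, a survival gene, by 4.69. Myc, a growth regulator, had 9.77 and 7.62 CPM in G-BMDM libraries, against 31.8, 23.6 and 26.7 CPM in Normal-BMDM libraries, with a difference of -1.80, and Fos and Klf2 were called lower too (-1.72 and -2.45). With library size alone 10 were called higher and 6 lower.

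**Figure D3:**
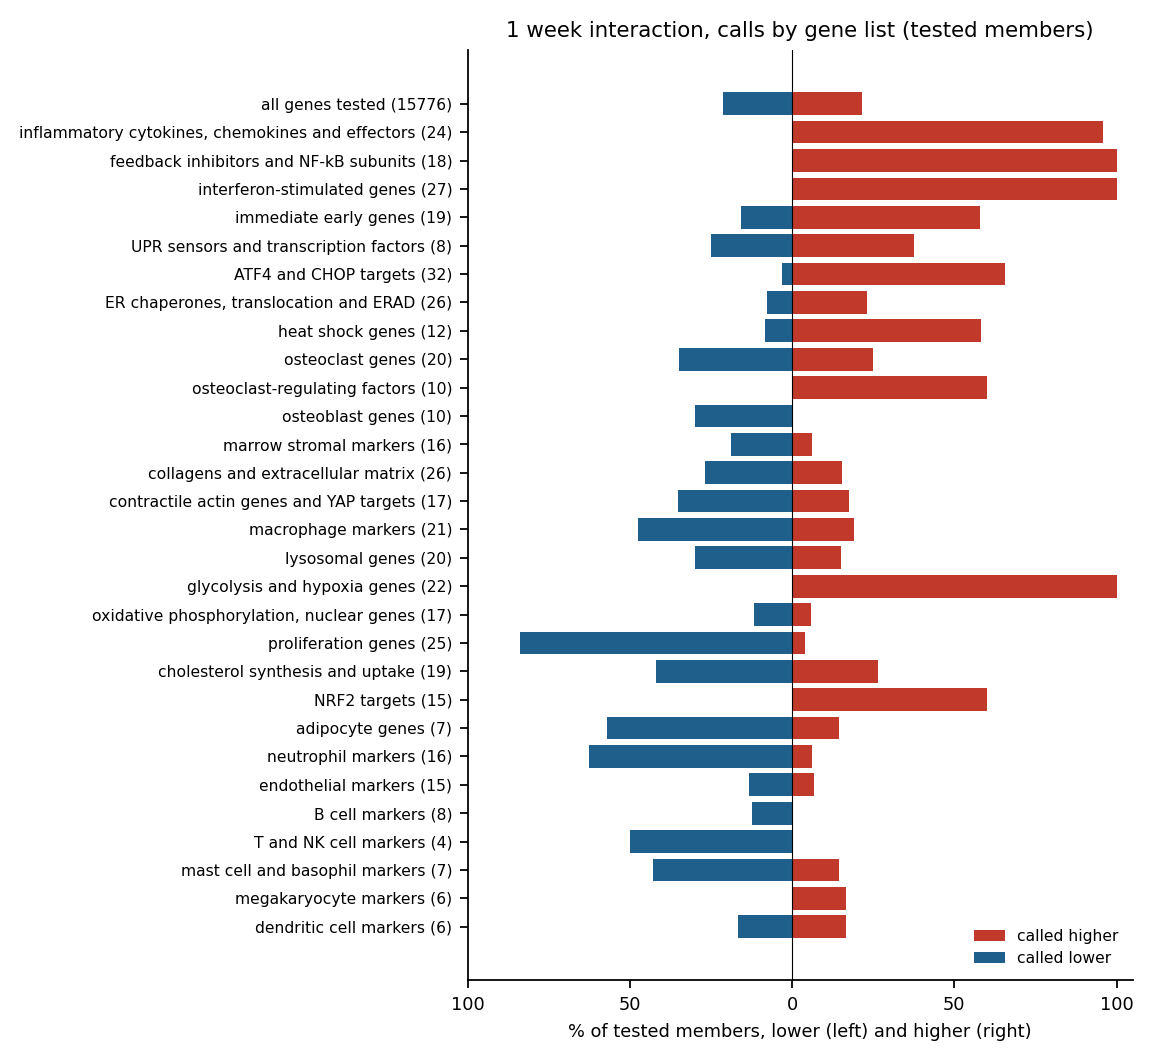
Share of the tested members of each gene list (number tested in brackets; lists with at least 4) called higher to the right and lower to the left in the 1 week response difference, with all genes tested in the top row. Feedback, interferon-stimulated and glycolysis lists reach 100% called higher, and proliferation genes 84% called lower.

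Genes of the unfolded protein response did not share a direction. Over all genes tested, 21.5% were called higher and 21.4% lower. A list of 8 genes held sensors, transcription factors and the chaperone gene Hspa5. Of these, 3 were called higher (Ern1, Atf4, Hspa5) and 2 lower (Eif2ak3 and a gene near the floor in all groups). Atf6, Xbp1 and Ddit3 were not called. Hspa5, the main chaperone of the endoplasmic reticulum, had 2006 and 1779 CPM in G-BMDM libraries, against 952, 914 and 817 CPM in Normal-BMDM libraries, and 1099, 1070 and 1075 CPM in G-BMSC libraries, against 1007, 1053 and 1041 CPM in Normal-BMSC libraries. Its response difference was 1.02 ± 0.17 on the log2 scale (SE, adjusted p = 0.000531, edgeR). Atf4 had 709 and 644 CPM in G-BMDM libraries, against 221, 201 and 162 CPM in Normal-BMDM libraries, and 250, 243 and 234 CPM in G-BMSC libraries, against 187, 197 and 216 CPM in Normal-BMSC libraries, so the groups separated widely in BMDM and narrowly in BMSC, and the difference was 1.52 ± 0.19 on the log2 scale (SE, adjusted p = 4.95e-05, edgeR). Ern1, the sensor IRE1α, had 55.3 and 86.1 CPM in G-BMDM libraries, against 12.6, 13.5 and 32.6 CPM in Normal-BMDM libraries, and 26.2, 16.7 and 23 CPM in G-BMSC libraries, against 36.3, 35.8 and 37.3 CPM in Normal-BMSC libraries. G libraries were thus all above Normal libraries in BMDM and all below them in BMSC, and the difference was 2.59 ± 0.47 on the log2 scale (SE, adjusted p = 0.000799, edgeR), with a BMSC response of -0.73 (interval -1.41 to -0.05) that was not called. Eif2ak3, the sensor PERK, had 14.6 and 19.6 CPM in G-BMDM libraries, against 31.2, 31 and 36 CPM in Normal-BMDM libraries, with a difference of -0.89.

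Ddit3, the stress factor CHOP, had 76.9 and 70.5 CPM in G-BMDM libraries, against 41.5, 36.3 and 32.8 CPM in Normal-BMDM libraries, and 29.3, 23.4 and 21 CPM in G-BMSC libraries, against 15.5, 18.1 and 15.3 CPM in Normal-BMSC libraries. G libraries were above Normal libraries in both cell types, as for Hspa5 and Atf4. The BMDM response was 1.00 and was called, the BMSC response was 0.59 (interval 0.29 to 0.90, unadjusted p = 0.00118) and was not, and the response difference of 0.40 was not called (adjusted p = 0.138), although it was without G-BMSC replicate 1 (0.55). Xbp1 differed by 0.04 (adjusted p = 0.863) and Atf6 by 0.33 (adjusted p = 0.235, called without Normal-BMDM replicate 3 at 0.49).

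Targets of ATF4 and CHOP were mostly called higher in the response difference, and their BMSC values were positive in 28 of 32 genes, against 8520 of 15776 genes tested. Of 32 tested, 21 were called higher in the response difference and 1 lower (Cebpg, -0.39, lost without any one of 7 libraries), with a median of 1.78, and 26 were called higher in BMDM. In BMSC 0 were called, but 11 had an unadjusted p below 0.05 with a positive sign and 1 with a negative sign. Over all 15776 genes tested these counts were 848 and 1092. The median BMSC response of the 32 was 0.33. Ddit4, an inhibitor of mTORC1, had 27.9 and 29.6 CPM in G-BMDM libraries, against 2.39, 2.05 and 2.32 CPM in Normal-BMDM libraries, and 50.7, 54.4 and 47.9 CPM in G-BMSC libraries, against 32, 38.5 and 35.4 CPM in Normal-BMSC libraries. The groups separated upward in both cell types, and the difference was 3.13 ± 0.17 on the log2 scale (SE, adjusted p = 9.96e-08, edgeR). Ppp1r15a, which restores translation after stress, differed by 3.41 and Gdf15, a stress cytokine, by 5.07. Slc7a11, the cystine transporter whose upstream sequence is printed above, had 772 and 964 CPM in G-BMDM libraries, against 26, 22.9 and 41.1 CPM in Normal-BMDM libraries, and 111, 81.8 and 84.2 CPM in G-BMSC libraries, against 138, 112 and 140 CPM in Normal-BMSC libraries. Here G libraries were above Normal libraries in BMDM and below them in BMSC, and the difference was 5.35 ± 0.32 on the log2 scale (SE, adjusted p = 1.55e-07, edgeR). The 10 members that were not called include genes of serine and proline synthesis (Psat1, Psph, Shmt2, Aldh18a1, Pycr1) and Atf5. For Psph and Atf5 the BMSC responses were 0.65 and 0.69 (unadjusted p = 0.00558 and 0.00128), and the BMDM responses 0.19 and 0.41, which were not called. The difference of Psph was called without Normal-BMSC replicate 2 (-0.76). Yars, a tRNA synthetase gene outside the lists that was chosen after its values were seen, had BMDM and BMSC responses of 0.95 and 0.81 and a difference of 0.14.

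Of 26 ER chaperones and genes of translocation and degradation, 6 were called higher and 2 lower (Sdf2l1, -0.89, and Sec61b, -0.73), with a median of 0.20. The shares over all genes tested were 21.5% higher and 21.4% lower. The call on Sdf2l1 was lost without either G-BMDM library or Normal-BMSC replicate 1 (-0.92 to -0.84), and that on Sec61b without G-BMDM replicate 2 (-0.69). Sec61b also lost its call when a trend on exonic length was removed from each library (-0.34). Hyou1 differed by 1.23, P4hb, a disulfide isomerase, by 0.92 and Dnajb9 by 0.72. Under library size alone 3 were called higher and 6 lower, and the call on Sec61a1 (0.63) was lost at 0.34. With the trend on exonic length removed 9 were called higher and 2 lower. Heat shock genes of the cytosol had 7 of 12 called higher and 1 lower (Cryab, -1.97, lost without G-BMDM replicate 2 at -1.51), with a median of 0.67, or 5 and 3 under library size alone. The call on Cryab was also lost with the trend on exonic length removed (-1.58). Hsp90aa1 differed by 2.06, Hspa8 by 1.32, Dnaja1 by 1.11 and Hsph1 by 1.30. For Hsph1 the BMDM libraries had 193 and 174 CPM under G, against 84, 85.3 and 78 CPM in Normal, and the BMSC libraries were apart the other way (-0.14).

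Energy metabolism differed in a uniform direction for glycolysis. All 22 tested glycolysis and hypoxia genes were called higher (median 2.77), also under library size alone. Slc16a3, the lactate exporter, had 718 and 704 CPM in G-BMDM libraries, against 39.1, 33.9 and 38.5 CPM in Normal-BMDM libraries, and 52.1, 52.1 and 44.7 CPM in G-BMSC libraries, against 52.5, 46.8 and 53 CPM in Normal-BMSC libraries, so the BMSC groups overlapped. Hk2, which traps glucose, differed by 4.02, Pfkl by 3.20 and Pfkfb3, which drives phosphofructokinase, by 4.24. For Pfkfb3 the BMSC response was -0.29 with no overlap between groups and no call. Nuclear genes of oxidative phosphorylation had 1 of 17 called higher (Cycs, 0.73) and 2 lower (among them Ndufb5, -1.29), against 21.5% and 21.4% of all genes tested. Under library size alone 0 were called higher and 11 lower. With a trend on exonic length removed from each library 5 were called higher and 2 lower, so their direction depends on the setting. The call on Cycs was lost without any one of 9 libraries (0.60 to 0.84). The median BMSC response of these 17 genes was 0.28, against 0.03 over all genes. In BMSC, 6 of them had an unadjusted p below 0.05 and a positive sign, against 848 of 15776 genes tested. The BMSC response varied with exonic length, as described below, and the part of length in these values was not tested. The share of counts on the 13 protein genes of mitochondrial DNA was 0.784% and 0.786% in G-BMDM, 1.37% to 1.40% in Normal-BMDM, 1.54% to 1.92% in G-BMSC and 1.57% to 1.78% in Normal-BMSC libraries.

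NRF2 targets, the antioxidant genes, had 9 of 15 called higher and 0 lower (median 1.15). Hmox1, which breaks down haem, had 9668 and 9262 CPM in G-BMDM libraries, against 781, 874 and 937 CPM in Normal-BMDM libraries, and 611, 759 and 847 CPM in G-BMSC libraries, against 797, 664 and 972 CPM in Normal-BMSC libraries. Its difference was 3.59 ± 0.26 on the log2 scale (SE, adjusted p = 6.33e-07, edgeR). Txnrd1 differed by 2.11 and Gclc, of glutathione synthesis, by 1.68. Cholesterol genes were split, with 5 of 19 called higher and 8 lower (median -0.34), against 21.5% and 21.4% of all genes tested. Insig1, which holds back the sterol-sensing machinery, differed by 1.29, while the synthesis genes Hmgcs1, Dhcr7 and Idi1 differed by -1.50, -2.17 and -1.39. Under library size alone 3 were called higher and 10 lower.

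Proliferation genes were the clearest list on the lower side, with 21 of 25 called lower and 1 higher (Ccne1, 1.38), a median of -2.23 and a median BMSC response of 0.01. Rrm2, a subunit of the enzyme that makes deoxynucleotides, had 1.47 and 1.19 CPM in G-BMDM libraries, against 32.8, 29.7 and 35.7 CPM in Normal-BMDM libraries, and 44.9, 45.4 and 43.4 CPM in G-BMSC libraries, against 47, 51.4 and 43.1 CPM in Normal-BMSC libraries. The BMDM groups were far apart and the BMSC groups overlapped, with a difference of -4.56 ± 0.20 on the log2 scale (SE, adjusted p = 2.01e-08, edgeR). Ccna2, a cyclin of S phase, differed by -4.67 and Mcm5, of the replicative helicase, by -2.67. Birc5, which serves chromosome segregation, had 1.98 and 1.49 CPM in G-BMDM libraries, against 27.4, 24 and 19.4 CPM in Normal-BMDM libraries, and 29.5, 29.8 and 30.4 CPM in G-BMSC libraries, against 22.9, 27.4 and 22 CPM in Normal-BMSC libraries. G libraries were below Normal libraries in BMDM and above them in BMSC, where the response of 0.31 was not called. Mki67, the usual marker of cycling cells, was not called (0.77, adjusted p = 0.106), with a BMDM response of 0.09 and a BMSC response of -0.67. It was called higher without Normal-BMDM replicate 3 (1.00) or Normal-BMSC replicate 3 (1.01).

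The 10 largest negative differences among genes above the floor in every group included scavenger receptors, transporters and an enzyme of prostaglandin breakdown. Hpgd, which breaks down prostaglandins, had 0.894 and 1.03 CPM in G-BMDM libraries, against 90.5, 113 and 171 CPM in Normal-BMDM libraries, and 26.5, 25.7 and 20.3 CPM in G-BMSC libraries, against 30.5, 34.5 and 22.3 CPM in Normal-BMSC libraries. Its difference was -6.72 ± 0.43 on the log2 scale (SE, adjusted p = 2.6e-07, edgeR). Cd163, the haemoglobin scavenger receptor, had 0.192 and 0.345 CPM in G-BMDM libraries, against 10.6, 13.5 and 54.2 CPM in Normal-BMDM libraries, and 11.1, 10.3 and 8.55 CPM in G-BMSC libraries, against 17.4, 22.2 and 12.5 CPM in Normal-BMSC libraries, and Normal-BMDM replicate 3 was well above its group. The rest of the 10 largest were the transporter genes Slco2b1 (-6.50) and Slc46a3 (-6.09), the receptor gene Gprc5c (-6.50), Cmbl (-5.87), the scavenger receptor gene Stab2 (-5.75), the kinase gene Matk (-5.66), Zfyve28 (-5.38) and Ramp1, a partner of the calcitonin-like receptor (-5.34). A further 4 genes were at or under the floor in G-BMDM, so no fold is given: Smpd3, a sphingomyelinase gene, had 0 and 0.0766 CPM in G-BMDM libraries, against 15.2, 22.6 and 11.7 CPM in Normal-BMDM libraries, and Lrrc14b had 0.128 and 0 CPM in G-BMDM libraries, against 3.18, 4.03 and 5.06 CPM in Normal-BMDM libraries. Mpo, a granule enzyme of myeloid precursors, had 0.0639 and 0.0766 CPM in G-BMDM libraries, against 9.85, 7.9 and 12.1 CPM in Normal-BMDM libraries, and Erbb2, a growth factor receptor, had 0 and 0.0766 CPM in G-BMDM libraries, against 1.13, 0.852 and 2.27 CPM in Normal-BMDM libraries. In BMSC the G and Normal libraries of these 4 genes overlapped.

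Macrophage markers were called in both directions. Of 21 tested, 4 were called higher and 10 lower (median -0.56). Marco, a scavenger receptor, differed by 7.65, Cd14, the co-receptor for endotoxin, by 2.13, Mrc1, the mannose receptor, by -3.64 and Ccr2, the monocyte chemokine receptor, by -4.89. Mrc1 had 27 and 32.9 CPM in G-BMDM libraries, against 320, 375 and 626 CPM in Normal-BMDM libraries, and 459, 426 and 354 CPM in G-BMSC libraries, against 496, 524 and 439 CPM in Normal-BMSC libraries. The summed level of the 21 genes ran from 33802 to 34958 CPM in G-BMDM, 34246 to 36569 CPM in Normal-BMDM, 23328 to 28360 CPM in G-BMSC and 21835 to 30414 CPM in Normal-BMSC libraries, and none was at 0 in any group. Csf1r, the M-CSF receptor, had 2279 and 2371 CPM in G-BMDM libraries, against 2235, 2503 and 2860 CPM in Normal-BMDM libraries, and 852, 901 and 1016 CPM in G-BMSC libraries, against 1111, 866 and 1152 CPM in Normal-BMSC libraries. Csf1r, Cd68 and Lyz2 were not called in either cell type or in the difference, and Adgre1, the F4/80 antigen, was called higher (1.44). The summed level of 16 marrow stromal markers was 203 to 217 CPM in G-BMDM, 343 to 552 CPM in Normal-BMDM, 858 to 1890 CPM in G-BMSC and 898 to 1783 CPM in Normal-BMSC libraries. The BMSC libraries thus held stromal transcripts together with abundant macrophage transcripts, whose part in the BMSC values was not tested. Lysosomal genes had 3 of 20 called higher and 6 lower (median -0.26), or 3 and 12 under library size alone. Over all genes tested, the main fit called 21.5% higher and 21.4% lower. Gaa differed by 0.82, Hexa by -1.28 and Tfeb, the factor that drives lysosomal genes, by -1.48.

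Osteoclast genes did not share a direction, with 5 of 20 called higher and 7 lower (median 0.12), against 21.5% and 21.4% of all genes tested. Acp5, the osteoclast phosphatase TRAP, had 403 and 368 CPM in G-BMDM libraries, against 49.6, 49.4 and 37.9 CPM in Normal-BMDM libraries, and 181, 150 and 172 CPM in G-BMSC libraries, against 150, 129 and 166 CPM in Normal-BMSC libraries. Its difference was 2.90 ± 0.21 on the log2 scale (SE, adjusted p = 5.49e-07, edgeR). Src, needed for the resorbing membrane, differed by 2.54, Clcn7, a chloride channel of resorption, by 1.90 and Mmp9 by 1.32. Dcstamp, which drives cell fusion, had 27.2 and 25.3 CPM in G-BMDM libraries, against 201, 160 and 129 CPM in Normal-BMDM libraries, with a difference of -2.29, and Trem2 differed by -3.26 and Nfatc1, the master factor, by -0.83. Ctsk, the collagen-degrading cathepsin, and Tnfrsf11a, the RANKL receptor, were not called (0.43 and -0.63, adjusted p = 0.112 and 0.0936), and Tnfrsf11a was called without G-BMSC replicate 1 (-0.80). Among factors that regulate osteoclasts, 6 of 10 were called higher and 0 lower (median 1.82), or 4 under library size alone, namely Il6, Il1b, Ptgs2, Lif (2.29), Csf1, which encodes M-CSF (1.35), and Tnfsf11. Tnfsf11, which encodes RANKL, had 0.319 and 0.536 CPM in G-BMDM libraries, against 0, 0 and 0 CPM in Normal-BMDM libraries, and 5.22, 3.82 and 3.63 CPM in G-BMSC libraries, against 2.48, 4.46 and 0.64 CPM in Normal-BMSC libraries. It was called (adjusted p = 0.0345) on a few counts in G-BMDM, with no count in Normal-BMDM, and lost its call without any one of 7 libraries (G-BMDM replicate 2, G-BMSC replicates 2 and 3, each Normal-BMDM library and Normal-BMSC replicate 1). Tnfrsf11b, the RANKL decoy osteoprotegerin, was not called, with 26.9, 22.6 and 10.4 CPM in G-BMSC libraries, against 9.71, 25.3 and 6.21 CPM in Normal-BMSC libraries.

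Collagens and the stromal chemokine Cxcl12 were far higher in BMSC than in BMDM libraries, and there the G and Normal groups overlapped. Col1a1 had 11.1 and 8.39 CPM in G-BMDM libraries, against 7.59, 12.6 and 17.9 CPM in Normal-BMDM libraries, and 3098, 2653 and 1699 CPM in G-BMSC libraries, against 1326, 2701 and 1082 CPM in Normal-BMSC libraries. Its response difference of -0.93 was not called (adjusted p = 0.208) but was without Normal-BMSC replicate 2 (-1.50). Cxcl12, the niche chemokine, had 0.319 and 0.192 CPM in G-BMDM libraries, against 0.923, 1.7 and 0.929 CPM in Normal-BMDM libraries, and 944, 680 and 285 CPM in G-BMSC libraries, against 221, 680 and 228 CPM in Normal-BMSC libraries, and its difference of -2.99 was not called (adjusted p = 0.0741), but was without G-BMSC replicate 3 (-3.34) or Normal-BMSC replicate 2 (-3.81). The summed level of 26 collagen and matrix genes ran from 12788 to 23581 CPM in G-BMSC and from 9687 to 23516 CPM in Normal-BMSC libraries. Of these 26, 4 were called higher and 7 lower in the difference (median -1.04), against 21.5% and 21.4% of all genes tested. Lox, which crosslinks collagen, had 210 and 213 CPM in G-BMDM libraries, against 4.28, 8.46 and 8.15 CPM in Normal-BMDM libraries, and 664, 540 and 262 CPM in G-BMSC libraries, against 226, 703 and 150 CPM in Normal-BMSC libraries, with a difference of 4.50. Col6a1 and Loxl1 were called lower (-2.39 and -4.13) at levels up to 6.04 and 2.74 CPM in BMDM libraries, and Col4a2 higher (2.37).

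Of 16 marrow stromal markers, 1 was called higher (Pdgfrb, 2.66) and 3 lower (Nes, -3.17, Prrx1, -3.60, and Vcam1, -1.21), with a median of -1.08 (-0.73 with genes of few counts set to the floor). For this list and those that follow here, the shares over all genes tested were 21.5% higher and 21.4% lower. The call on Vcam1 was lost without any one of 7 libraries (all but the 3 Normal-BMDM libraries and Normal-BMSC replicate 2), at -1.30 to -1.10. Osteoblast genes had 0 of 10 called higher and 3 lower (median -1.24, or -0.58 with genes of few counts set to the floor), among them Alpl, the mineralising phosphatase, and Pth1r. Alpl had 0 and 0.0766 CPM in G-BMDM libraries, against 0.205, 0.227 and 0.206 CPM in Normal-BMDM libraries, and 11.7, 10.3 and 6.98 CPM in G-BMSC libraries, against 4.39, 7.55 and 6.02 CPM in Normal-BMSC libraries, and its call was lost without G-BMDM replicate 1. Pth1r, the receptor for parathyroid hormone, was at 0 in both G-BMDM libraries and lost its call without any one of 8 libraries (all but Normal-BMDM replicates 2 and 3 and Normal-BMSC replicate 2). Runx2, the master factor of osteoblasts, was not called (-0.30, adjusted p = 0.356). Contractile genes and YAP targets had 3 of 17 called higher and 6 lower (median -0.74), with Zyx (1.29) and Vcl (1.25), of focal adhesions, higher and Myl9 (-4.86) and Cyr61 (-2.51) lower. Adipocyte genes had 1 of 7 called higher (Fabp4, 1.61) and 4 lower (median -1.25, or -0.90 with genes of few counts set to the floor), among them Pparg, the master factor of fat cells (-3.08), and Lpl (-1.46).

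Markers of other marrow cells were measured beside these genes. Their counts of calls stand against 21.5% higher and 21.4% lower among all genes tested. Neutrophil markers had 10 of 16 called lower and 1 higher (median -2.22, or -2.20 with genes of few counts set to the floor), with summed levels of 491 to 525 CPM in G-BMDM, 448 to 760 CPM in Normal-BMDM, 1193 to 2357 CPM in G-BMSC and 1932 to 2937 CPM in Normal-BMSC libraries. Elane, a granule protease, had 0.256 and 0.306 CPM in G-BMDM libraries, against 6.5, 5 and 5.99 CPM in Normal-BMDM libraries, and 76.1, 81.1 and 37.7 CPM in G-BMSC libraries, against 92.9, 85.8 and 67 CPM in Normal-BMSC libraries. Csf3r, the receptor of G-CSF, was the gene called higher (1.49), and its groups were apart upward in BMDM and downward in BMSC. Mast cell and basophil markers had 1 of 7 higher (Hdc, 3.28) and 3 lower (Prss34, -3.64, and Cpa3 and Mcpt8, which are near the floor). The calls on Cpa3 and Mcpt8 were lost without G-BMDM replicate 2, and that on Cpa3 also without G-BMDM replicate 1. Dendritic cell markers had 1 of 6 higher (Ccr7, 2.95, lost without G-BMDM replicate 2 at 2.79 or Normal-BMSC replicate 3 at 1.73) and 1 lower (Ciita, -1.36, lost without G-BMDM replicate 1 at -1.23). T and NK cell markers had 0 of 4 higher and 2 lower (Cd4, -2.02, and Klrb1c, -3.23). Endothelial markers had 1 of 15 higher (Kdr, 3.23) and 2 lower (Stab2, named above, and Plvap, -3.15, lost without either G-BMDM library or Normal-BMDM replicate 1, at -3.46 to -2.76). Plvap also lost its call with the trend on exonic length removed (-2.77). B cell markers had 0 of 8 higher and 1 lower (Cd79b, -4.15), erythroid markers 0 of 2 higher and 1 lower (Epor, -3.35), megakaryocyte markers 1 of 6 higher (Gp6, 1.64) and 0 lower, and skeletal muscle markers 0 of 2. The part of these cells in the response difference was not tested.

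**Figure D4:**
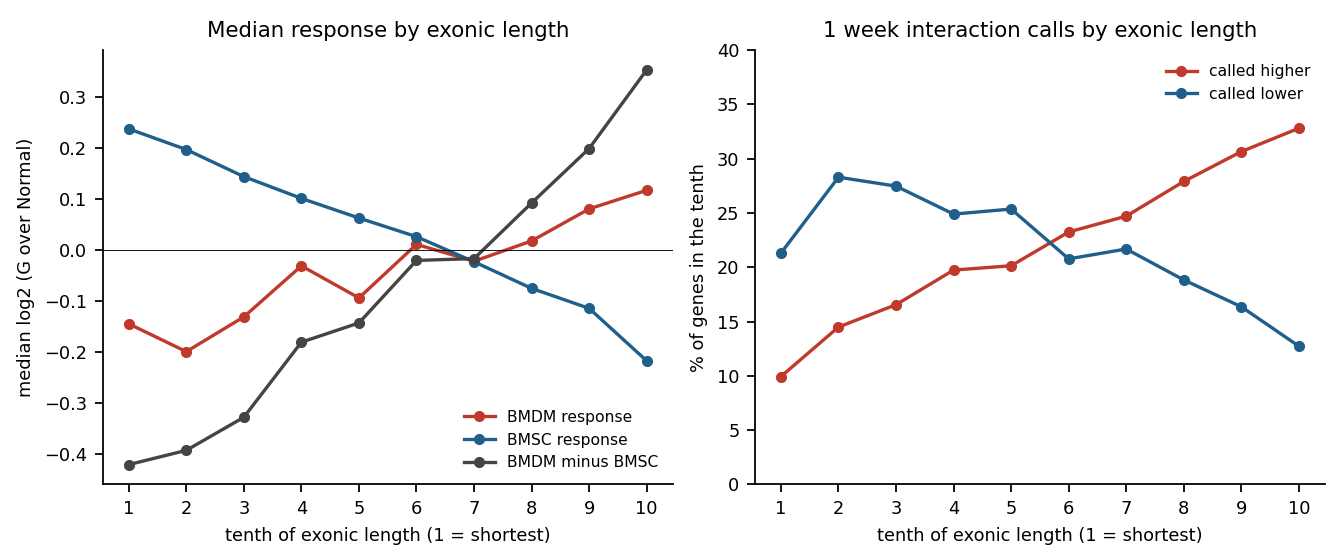
Genes in 10 equal groups of exonic length from shortest to longest. Left, the median log2 response (G over Normal) in BMDM and BMSC and the BMDM minus BMSC difference; right, the share of genes called higher and lower in that difference. The BMSC median runs from 0.24 to -0.22 and the share called higher from 9.93% to 32.8%.

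The response difference varied with gene length, a property that no list used. Over the 14545 genes with an exonic length (92.2%), the Spearman correlation across genes of length with the log2 response was -0.39 in BMSC, 0.06 in BMDM and 0.16 in the difference; genes share libraries and are not replicates. In the shortest of 10 equal groups (56 to 1272 bases) the median BMSC response was 0.24 and in the longest group (9583 to 123179 bases) it was -0.22. The share called higher in the difference was 9.93% in the shortest and 32.8% in the longest group, and the share called lower 21.3% in the shortest and 12.7% in the longest group. When a trend on length was removed from each library before the fit, 6921 genes were called, 6065 of them among the 6770, and 0 in BMSC. Short and long genes chosen after their values were seen show the sizes: Ndufa2, a subunit of respiratory complex I, had 49.9, 70 and 64.6 CPM in G-BMSC libraries, against 35.8, 32.4 and 42.9 CPM in Normal-BMSC libraries, and Nf1, a large RAS regulator, had 42.2, 36 and 36.9 CPM in G-BMSC libraries, against 57.6, 63.9 and 53.5 CPM in Normal-BMSC libraries. In BMSC the G libraries were all above Normal for Ndufa2 (0.73) and all below for Nf1 (-0.60), and their response differences were -1.22 and 1.04. The call on Nf1 was lost without G-BMDM replicate 2 (0.77) and under library size alone (0.75). Gstp1, a glutathione transferase gene also chosen after seeing its values, had 11.9 and 9.31 CPM in G-BMDM libraries, against 11.5, 2.33 and 1.29 CPM in Normal-BMDM libraries, and 0.764, 1.97 and 2.27 CPM in G-BMSC libraries, against 19.6, 15.7 and 23.5 CPM in Normal-BMSC libraries. Its BMSC response of -3.58 (interval -5.00 to -2.17) was not called by edgeR. DESeq2 called it (-3.56, adjusted p = 0.00966, DESeq2), as 1 of the 6 genes it called in BMSC. Near-identical copies make the counts of Gstp1 uncertain.

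The same contrast in the 8 libraries of the 3 week set (2 per group) was far smaller. In a fit of all 19 libraries with 15550 genes, the 3 week response difference was called for 39 genes (0.251%), 38 higher (0.244%) and 1 lower (Cyp1b1, 0.00643%). Unadjusted, 807 genes had a p below 0.05, and DESeq2 called 80. The lean to higher calls depended on the setting, with 70% of the calls higher under DESeq2 and 32.5% of 342 calls with no count filter. Within macrophages at 3 weeks 56 genes were called (0.36%), 54 higher (0.347%) and 2 lower (0.0129%). All 38 were also among the 3864 genes, of 15550 tested, called higher at 1 week in that fit. They are 100% of the 3 week list and 0.983% of the 1 week list. The test of the difference between the sets called 4543 genes (29.2%), 2229 higher (14.3%) and 2314 lower (14.9%) at 1 week, and 4447 of these had the sign of a called 1 week difference. It called 32 of the 38 as higher at 1 week. Duration and set cannot be told apart.

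At 3 weeks Saa3 had 631 and 468 CPM in G-BMDM, against 2.56 and 2.96 CPM in Normal-BMDM, and 59.9 and 55.8 CPM in G-BMSC, against 37.2 and 62.2 CPM in Normal-BMSC libraries. The response difference in the 19-library fit was 12.84 (95% interval 11.82 to 13.85) at 1 week and 7.42 (6.29 to 8.54) at 3 weeks, and the sets differed by 5.42 ± 0.67 (SE, adjusted p = 1.76e-05, edgeR). Il6 had 10.3 and 8.83 CPM in G-BMDM, against 0 and 0 CPM in Normal-BMDM, and 0.829 and 0.674 CPM in G-BMSC, against 0.647 and 0.352 CPM in Normal-BMSC libraries, and again separated in macrophages, where both Normal libraries were at 0. Cxcl2 differed by 9.61 (95% interval 8.82 to 10.41) at 1 week and 6.68 (5.77 to 7.59) at 3 weeks. Socs3 differed by 8.05 (95% interval 7.43 to 8.67) at 1 week and 2.81 (2.06 to 3.55) at 3 weeks, and Slc7a11 by 5.35 (95% interval 4.78 to 5.93) at 1 week and 1.78 (1.12 to 2.44) at 3 weeks. Cav1, the caveolin gene, and Ly6i were among those whose size did not pass the test between sets: Cav1 differed by 5.08 (95% interval 4.13 to 6.03) at 1 week and 4.82 (3.57 to 6.07) at 3 weeks, and Ly6i by 5.12 (95% interval 4.18 to 6.06) at 1 week and 5.34 (3.96 to 6.71) at 3 weeks. For Cyp1b1 the 3 week libraries had 2.25 and 1.48 CPM in G-BMDM, against 5.62 and 7.28 CPM in Normal-BMDM, and 268 and 193 CPM in G-BMSC, against 192 and 170 CPM in Normal-BMSC libraries, and the difference was -0.24 (95% interval -0.98 to 0.50) at 1 week and -2.11 (-2.95 to -1.27) at 3 weeks. Of the genes of the unfolded protein response, Hspa5, Atf4 and Ern1 had 3 week response differences of 0.12, -0.05 and 0.08, none called, and all were called as higher at 1 week in the test between sets.

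**Figure D5:**
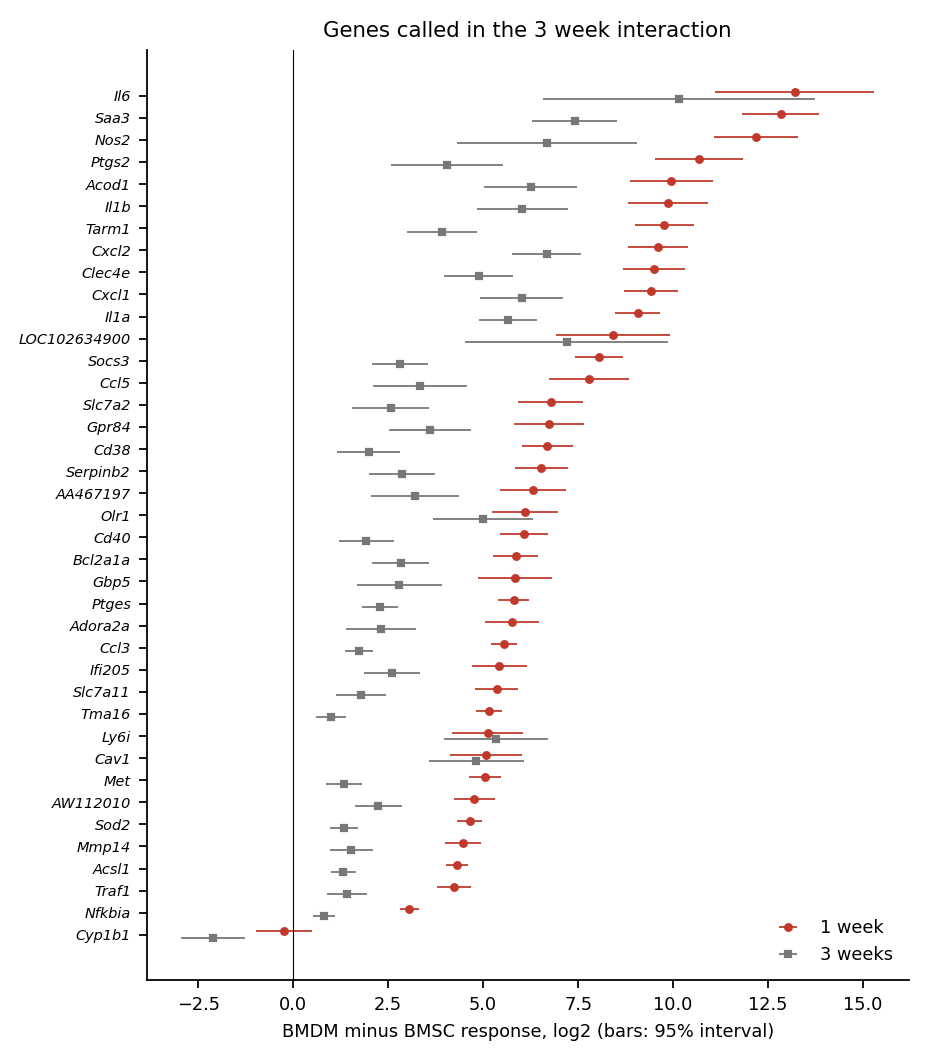
BMDM minus BMSC response (log2) with 95% intervals for the 39 genes called at 3 weeks, at 1 week (circles) and at 3 weeks (squares), from the fit of all 19 libraries. For most of the 38 genes called higher the 1 week value lies to the right, with overlapping intervals for Il6, LOC102634900, Olr1, Ly6i and Cav1.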

How the data were processed

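RNA-seq of mouse BMDM and BMSC libraries was used as the deposited table of counts per gene symbol (46095 symbols). Per the submitters' processing notes, the aligner was HISAT2 2.0.4 and the build mm10. For the counting program, its annotation and its strand setting, nothing was given in the sources used here, so antisense and overlapping genes cannot be told apart. Sample columns were matched to GEO's titles, and the groups follow the labels. Library totals of 17.6 to 33.02 M set the precision. The floors given cover only the error of counting.

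The 11 libraries of the 1 week set were fitted with edgeR 4.0.16 (R 4.3.3) after filterByExpr, which kept 15776 genes, with TMM scaling and the quasi-likelihood test of the interaction, Benjamini-Hochberg adjusted over all genes. The 3 week contrast and the comparison of sets came from a fit of all 19 libraries (15550 genes). The SEs and intervals were worked back from each log2 value and its test statistic, and can be poorly set for genes near the floor. For Il6 the difference between sets had an SE of 21.1, against 0.986 at 1 week and 1.68 at 3 weeks. For Nos2 the 1 week interval (11.09 to 13.29) and the 3 week interval (4.30 to 9.07) did not overlap. Its difference between sets was still not called (adjusted p = 0.112, edgeR). DESeq2 1.42.0, other scalings and filters, a replicate block, leaving out single libraries and removing a trend on exonic length were alternatives, the last of these added after seeing the data. Same-numbered libraries did not deviate together, so the numbers were not taken as pairs.

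The contrast, the 31 gene lists (517 genes, 477 tested) and the genes named were chosen with earlier results of these data known. The text names the 10 largest called differences each way among genes of at least 5 CPM with over 3 counts in every group, 5 called genes with 3 or fewer counts in a group, up to 4 members a list by p, and 19 preset genes. Genes named to spell out small counts, to illustrate length or as uncalled list members were chosen after their values were seen. Exonic lengths are the union of each gene's exons in the GENCODE annotation of the same assembly, and upstream sequences are RefSeq's (GRCm38.p6). Both were matched by symbol, and 11032 of the 15776 genes had an upstream sequence. The motif cores were set after the data were seen, and of several RefSeq starts of a gene any could hold the match. Some list members are not reported here by name.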

Additional observations from a re-analysis of the deposited data

Results flagged for a closer look

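The cultures labelled BMDM and BMSC responded differently to hypergravity at 1 week for 3393 genes called higher and 3377 called lower, by the edgeR test of the difference itself. BMSC libraries also held abundant macrophage transcripts, whose part in the BMSC values was not tested. At 3 weeks the same test called 39 genes. The test of the 1 week against the 3 week response difference called 4543 genes. In addition, 9 of the 186 named genes drew attention because all G libraries lay on one side of the Normal libraries in BMDM and on the opposite side in BMSC. For 6 of them the response difference was positive, with higher values under G in BMDM and lower values in BMSC: Tarm1 (9.776), Slc7a11 (5.35), Pfkfb3 (4.238), Ern1 (2.593), Csf3r (1.486) and Hsph1 (1.297). For Birc5 (-4.101), Cryab (-1.974) and Sec61b (-0.726) the directions were the other way round. The response difference of each was called by edgeR, while none of the BMSC responses was called by itself. With the trend on exonic length removed, the calls on Cryab (-1.58) and Sec61b (-0.34) were lost. Such opposite separation was seen in 1073 of 15776 genes tested (6.8%), and 9 of 186 is not more than that share.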

How the results depend on the processing

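The number of genes called in the 1 week response difference, 6770, was 7178 with DESeq2, 6815 with DESeq2 size factors, 7130 with library size alone, 7047 with no count filter, 6628 with a minimum of 1 CPM, 6921 with the length trend removed and 7710 with all 19 libraries. It ran from 4810 to 7354 when single libraries were left out. The replicate block gave 6436 genes; pairs of libraries with the same number correlated at -0.218 to 0.35, over 0.1 in 2 of 15 pairs, so the number is not taken as a pairing. The BMDM count of 7902 ran from 5806 to 8142 without single libraries.

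The BMSC count of 0 became 6 with DESeq2, 2 with all 19 libraries and 734 with no count filter, the last with 333 genes called in both cell types in opposite directions; the cause was not tested. Without single BMSC libraries the BMSC count stayed at 0. Without Normal-BMDM replicate 1, Gstp1 was called in BMSC and in BMDM in opposite directions, so the count of opposite calls ran from 0 to 1.

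The 39 genes of the 3 week response difference became 80 with DESeq2 (70% higher) and 342 with no count filter (32.5% higher), and 22 to 34 without single libraries. The 4543 genes that differed between sets ran from 3666 to 5567. Of 146 named genes called, 126 kept their call in all 19 alternatives run on single genes, and no call changed sign. Depth limits genes near the floor of 0.0909 to 0.17 CPM per library before TMM scaling. For named genes with 3 or fewer counts summed over a group levels are given in place of folds. The small number of G-BMDM libraries (2) limits the error of that group.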
